A study of Mus musculus with 12 samples.

Results

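The genes described here are 8 targets of JAK-STAT signalling: Cish, Socs1, Socs2 and Socs3 of the SOCS family, the kinase genes Pim1 and Pim2, and the survival genes Bcl2l1 and Mcl1. They were chosen by name from 21887 protein-coding genes, with earlier results of these data known. Shares of members set beside shares of all genes or regions are therefore descriptions. Every open-chromatin peak that touched the span of one of them, or the 50 kb on either side of it, was taken. After peaks that overlapped between libraries had been merged, these windows held 91 of 56682 regions.

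The libraries came from mouse HoxB8 cells, a bone marrow line immortalised by Hoxb8 and grown with estrogen and stem cell factor, and all were made 48 h after estrogen had been withdrawn. The assay was ATAC-seq, which maps accessible DNA by where a transposase can cut it. There were 4 groups with 3 libraries each: sgNT/Empty (non-targeting guide, empty pMICH vector), sgB2/Empty (CRISPR guide for an Asxl1 truncation, empty vector), sgNT/T618I (non-targeting guide, vector for the CSF3R T618I receptor mutant) and sgB2/T618I (both). All 4 groups carried a guide and a vector, and cells still kept in estrogen were not analysed here. The receptor was overexpressed from a vector rather than its own locus, and nothing in the labels ties the 3 libraries in each group to independent cultures or clones. The p-values then reflect only how far these libraries differ, which may be technical.

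CSF3R is the receptor for granulocyte colony-stimulating factor and signals through JAK kinases to STAT3 and STAT5. STAT dimers bind the palindrome TTCNNNGAA and switch on genes that feed back on the signal, the SOCS proteins and CIS (from Cish), together with genes that promote growth and survival, such as the PIM kinases, BCL-XL (from Bcl2l1) and MCL1. In neutrophil precursors SOCS3 is the known brake on this receptor, and MCL1 is a main survival factor.

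The promoters of Cish and Socs3 are shown because they were the member promoters with that palindrome. RefSeq promoter windows (GRCm38.p6, from 250 bases before to 50 after the transcription start) were found for 7 of the 8 genes, 10 windows in all, and not for Socs2. The palindrome, which reads the same on both strands, stood in 2 of the 10 windows and in 8.30% of 32851 windows of the same length over the genome. The capitals mark it; the Cish window is chr9:107296409-107296708 on the plus strand and the Socs3 window chr11:117969317-117969616 on the minus strand.
Cish: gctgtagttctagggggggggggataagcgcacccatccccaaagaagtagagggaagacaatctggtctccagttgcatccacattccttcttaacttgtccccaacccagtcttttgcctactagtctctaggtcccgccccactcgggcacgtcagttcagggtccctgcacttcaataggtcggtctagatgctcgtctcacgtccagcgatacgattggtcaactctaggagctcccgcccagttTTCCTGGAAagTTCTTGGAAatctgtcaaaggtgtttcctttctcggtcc
Socs3: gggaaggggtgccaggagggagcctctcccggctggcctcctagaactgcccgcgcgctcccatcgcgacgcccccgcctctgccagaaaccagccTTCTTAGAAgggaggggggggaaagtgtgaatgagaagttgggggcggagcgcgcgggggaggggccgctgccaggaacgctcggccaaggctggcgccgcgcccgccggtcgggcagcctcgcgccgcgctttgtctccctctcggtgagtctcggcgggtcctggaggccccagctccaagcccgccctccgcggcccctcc
The Cish window held 2 copies, TTCCTGGAA and TTCTTGGAA, with first bases at positions 1 and 12 when the start base is counted as 1. A window with 2 or more copies made up 0.457% of all windows. Socs3 held the single copy TTCTTAGAA, with its first base at position -154 on the same count, which has no 0. Both windows overlapped a peak, at least in part, in all 12 libraries, as did the promoter windows of Socs1, Pim2 and Mcl1, 1 of 2 windows of Pim1 and 2 of 3 of Bcl2l1. The other Pim1 window had a peak in 5 libraries and the other Bcl2l1 window in 0.

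The lists held 18484 to 32975 peaks on standard chromosomes and covered 9.23 to 17.9 Mb per library, and the shortest list was that of sgNT/Empty replicate 1. Read depth is unknown, since peak lists hold no read counts, and a region without a peak is one below the caller's threshold, not one shown to be closed. Windows around marker genes of several cell types differed between T618I and Empty libraries. The lengths below were summed gene by gene, so that bases shared by neighbouring windows were counted in each of them. The summed peak-covered length at the 12 mature neutrophil markers with the empty vector was 23.3 to 25.7 kb in sgNT cells and 21.7 to 24.1 kb in sgB2 cells, and with T618I it was 39.9 to 44.4 kb and 32.9 to 35.5 kb. At the 5 primary granule (promyelocyte) markers it was 27.4 to 37.0 kb and 27.6 to 31.9 kb with the empty vector and 26.5 to 27.0 kb and 19.99 to 21.99 kb with T618I. At the 6 lymphoid markers it was 12.7 to 13.4 kb and 11.96 to 14.7 kb with the empty vector and 10.6 to 11.04 kb and 9.67 to 10.3 kb with T618I. At each of these lists the T618I and Empty libraries did not overlap within a guide: T618I was higher at the first and lower at the others. For single genes, T618I was higher without overlap at 8.81% of all genes in sgNT cells and 7.81% in sgB2 cells. The share of genes at which T618I was lower without overlap is not given here. No such share was taken for sums over several windows, so the separation of these lists is a description only. The mast cell, basophil and eosinophil markers were lower with T618I in sgB2 cells (6.35 to 6.53 kb, against 7.49 to 8.84 kb) and overlapped in sgNT cells. Progenitor, monocyte and macrophage, and erythroid and megakaryocyte markers overlapped within both guides. None of the 12 mature neutrophil markers, nor any of the 6 other marker lists' genes, was at 0 in all libraries. The part of these shifts in the T618I results below was not tested, and a change in the share of cells cannot be told apart from a change within each cell in bulk libraries.

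The median member had 3.72 kb under peaks, 3.15% of its window, and the median of the 15286 tested genes had 2.23 kb, 1.65% of the window (covered length scaled to an equal total per library). Socs2 was below that median, with 1.63 kb and 1.22%. Of the 91 member regions, 34 had a peak in all 12 libraries (37.4%, against 23.6% in the whole series), 17 in a single library (18.7%, against 34.5%) and 40 in 2 to 11 libraries. Cish, Socs3, Bcl2l1 and Mcl1 had 15 or 16 regions each, Socs1 12, Pim1 7, Socs2 6 and Pim2 5. Other protein-coding genes lay in 7 of the 8 windows, for example Mapkapk3 and Hemk1 beside Cish and Id1 beside Bcl2l1, so that a region in a window need not belong to the member.

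The peak-covered length around the 8 genes did not pass the test in any comparison of guide or vector. This covers the T618I and sgB2 effects (each averaged over the other factor), each effect within 1 background, and their interaction (limma, Benjamini-Hochberg adjusted over 15286 genes). Among all tested genes 6.49% passed for T618I, 1.49% for T618I in sgNT cells, 1.6% for T618I in sgB2 cells, 2.83% for sgB2, 0.353% for sgB2 with the empty vector, 0.36% for sgB2 with T618I and 0.00654% for the interaction. At an unadjusted p below 0.05 there were 3 members for T618I (Socs1, Socs2 and Socs3), while 22.6% of all genes passed that mark. The single member at that mark for sgB2 was Socs3, against 15.7% of all genes. No member had all 6 T618I libraries above all 6 Empty libraries, which held for 1.65% of genes. The median member log2 change with T618I was 0.12, beside -0.05 for all tested genes, and with sgB2 it was -0.06 beside 0.00.

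**Figure D1:**
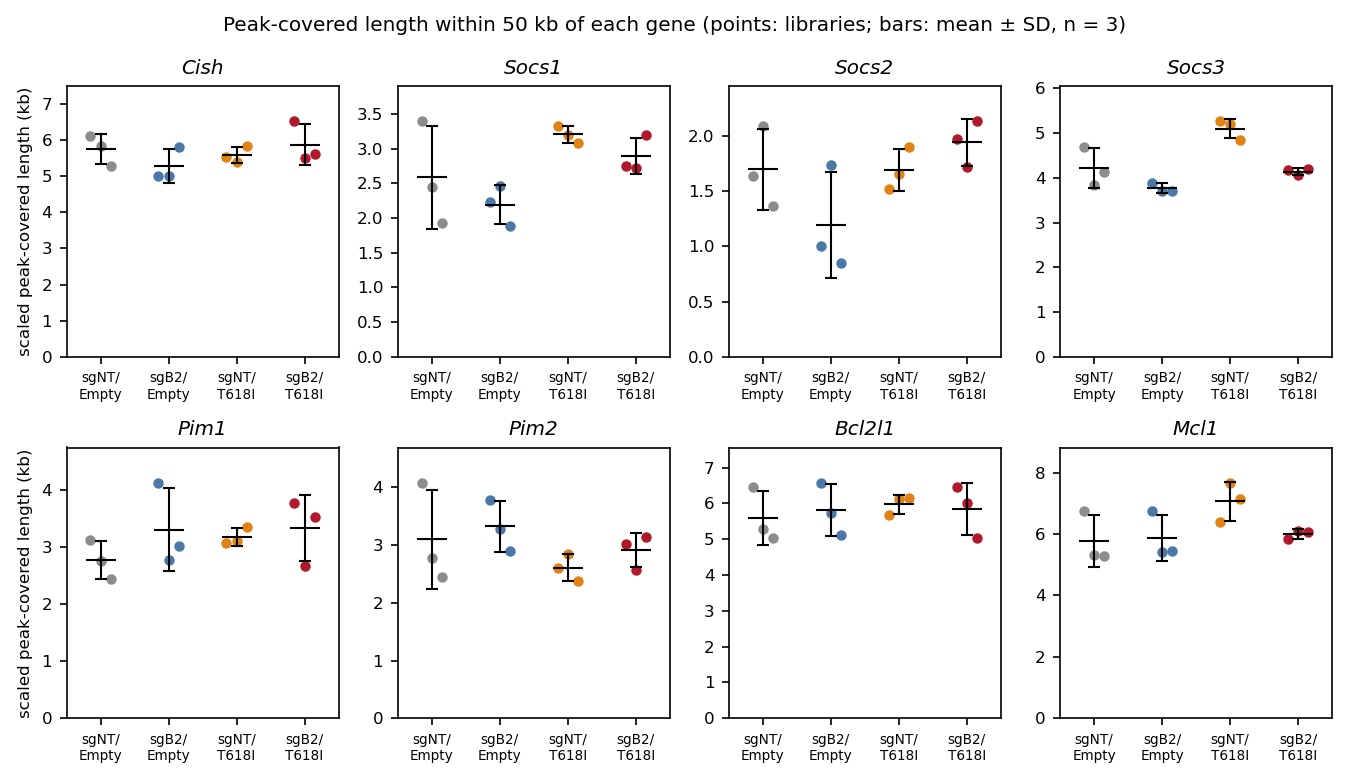
Peak-covered length within 50 kb of each gene (y axis, kb, scaled to equal total covered length per library) in the 4 groups (x axis). Points are libraries and bars the mean ± SD of 3. For Socs3 the 3 sgNT/T618I libraries (4.85 to 5.26 kb) lie above all others, and for Cish and Bcl2l1 the groups overlap.

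**Figure D2:**
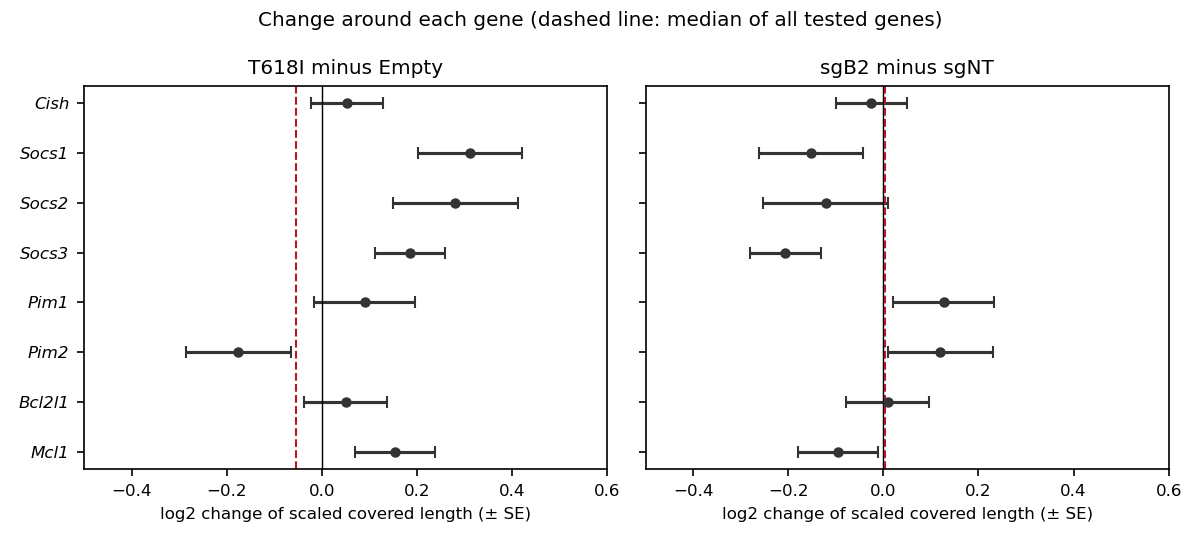
Log2 change of the scaled covered length (x axis, ± SE) for the 8 genes (y axis), T618I against Empty on the left and sgB2 against sgNT on the right; the dashed line is the median of all tested genes. Pim2 is the gene left of 0 for T618I, and none of the 8 passed the adjusted test in either panel.

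Socs3 encodes the inhibitor that binds the activated CSF3R and blocks its JAK kinase. In sgNT cells its window had 4.70, 3.83 and 4.12 kb under peaks with the empty vector and 5.26, 5.19 and 4.85 kb with T618I. In sgB2 cells it had 3.89, 3.70 and 3.71 kb with the empty vector and 4.17, 4.05 and 4.19 kb with T618I. T618I libraries were above Empty libraries without overlap within each guide, which held for 8.81% of all genes in sgNT cells and 7.81% in sgB2 cells. With T618I, the sgB2 libraries also lay below the sgNT libraries without overlap, as in 8.86% of all genes. The T618I change was 0.19 ± 0.07 (log2, SE; adjusted p = 0.153, limma) and the sgB2 change -0.21 ± 0.07 (adjusted p = 0.165), so that neither passed. The interaction was -0.13 ± 0.15 (adjusted p = 0.999).

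Socs1, the inhibitor that acts directly on JAK kinases, had 3.40, 2.44 and 1.93 kb in sgNT cells with the empty vector and 3.32, 3.21 and 3.09 kb with T618I. The sgB2 cells had 2.24, 2.46 and 1.89 kb with the empty vector and 2.76, 2.73 and 3.20 kb with T618I. In sgB2 cells the T618I libraries were clear of the Empty ones, as in 7.81% of all genes. In sgNT cells replicate 1 of sgNT/Empty was as high as the T618I libraries. The change was 0.31 ± 0.11 (limma adjusted p = 0.104), and it passed without that replicate (adjusted p = 0.0204). Without scaling it also passed (adjusted p = 0.0111), but all genes then shifted up, to a median of 0.20.

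Socs2, a family member best known for restraining growth hormone signals, had the lowest covered length of the 8. With the empty vector it was 1.64, 2.09 and 1.37 kb in sgNT cells and 1.001, 1.74 and 0.846 kb in sgB2 cells. With T618I it was 1.52, 1.66 and 1.9 kb in sgNT cells and 1.97, 1.72 and 2.13 kb in sgB2 cells. The groups overlapped in each comparison, narrowly in sgB2 cells, where the highest Empty library (1.74 kb) exceeded the lowest T618I library (1.72 kb). The change with T618I was 0.28 ± 0.13 (limma adjusted p = 0.214) over both guides. Within sgB2 cells it was 0.56 ± 0.19 (adjusted p = 0.155, and 0.0436 without sgB2/Empty replicate 2), and within sgNT cells 0.00 ± 0.19 (adjusted p = 0.994). The test of the difference between them did not pass (0.55 ± 0.26, adjusted p = 0.999).

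Cish, which encodes a STAT5-induced member of the family, had 6.11, 5.84 and 5.30 kb in sgNT cells with the empty vector and 5.53, 5.41 and 5.84 kb with T618I. The sgB2 cells had 5.01, 5.02 and 5.81 kb with the empty vector and 6.52, 5.50 and 5.61 kb with T618I. The groups overlapped, with a T618I change of 0.05 ± 0.08 (limma adjusted p = 0.693). With each list shortened to its 18484 strongest peaks, the change was 0.29 and passed (adjusted p = 0.00916). Single regions inside the window did change in rank, as given below.

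The covered length of the PIM kinase and survival genes also stayed below the threshold. Pim1 ranged from 2.44 to 4.12 kb over the 12 libraries, Pim2 from 2.37 to 4.08 kb, Bcl2l1 from 5.04 to 6.57 kb and Mcl1 from 5.27 to 7.67 kb. The T618I changes were 0.09 ± 0.11 for Pim1, 0.05 ± 0.09 for Bcl2l1, 0.15 ± 0.08 for Mcl1 (limma adjusted p = 0.282) and -0.18 ± 0.11 for Pim2. The largest of these genes' changes in sgNT cells was that of Mcl1, 0.27 ± 0.12 (limma adjusted p = 0.316). In sgB2 cells the Mcl1 change was 0.04 ± 0.12 (adjusted p = 0.915). The 3 sgNT/T618I libraries of Mcl1 (6.40, 7.67 and 7.13 kb) lay above the sgB2/T618I libraries (5.82, 6.10 and 6.08 kb) without overlap, as in 8.86% of all genes. Pim2 lies on chromosome X, whose share of all covered bases with the empty vector was 2.19 ± 0.087% in sgNT and 1.85 ± 0.025% in sgB2 cells, and with T618I 2.18 ± 0.033% and 1.77 ± 0.024% (SD, n = 3). The sgB2 change of Pim2 was 0.12 ± 0.11 (adjusted p = 0.693), in the opposite direction to that share.

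Within the windows, single regions did change in strength. For the 13356 regions with a peak in every library, the authors' −log10 q was ranked within each library over those same regions and given as a percentile, and the normal scores of the ranks were tested with limma. With T618I, 9 of the 34 member regions of this kind rose in rank (26.5%; 9.82% of all such regions rose) and 1 fell (2.94%; 9.05% of all fell). The 9 lay in the windows of Cish (3), Socs1 (2), Mcl1 (2), Socs3 (1) and Pim1 (1), and the region that fell lay in Bcl2l1. This balance depended on the value ranked: with the authors' fold over background in place of −log10 q, 3 of the 34 rose and 3 fell (3.65% and 3.82% of all such regions). Of the 10 regions above, the fold ranks kept the rises downstream of Cish (9.69 kb) and Socs1 (14.7 kb) and the fall inside Bcl2l1. None of the 5 such regions in the windows of Socs2 and Pim2 passed. These regions were picked out after their values were seen, except the promoter regions, which the naming rule covers.

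**Figure D3:**
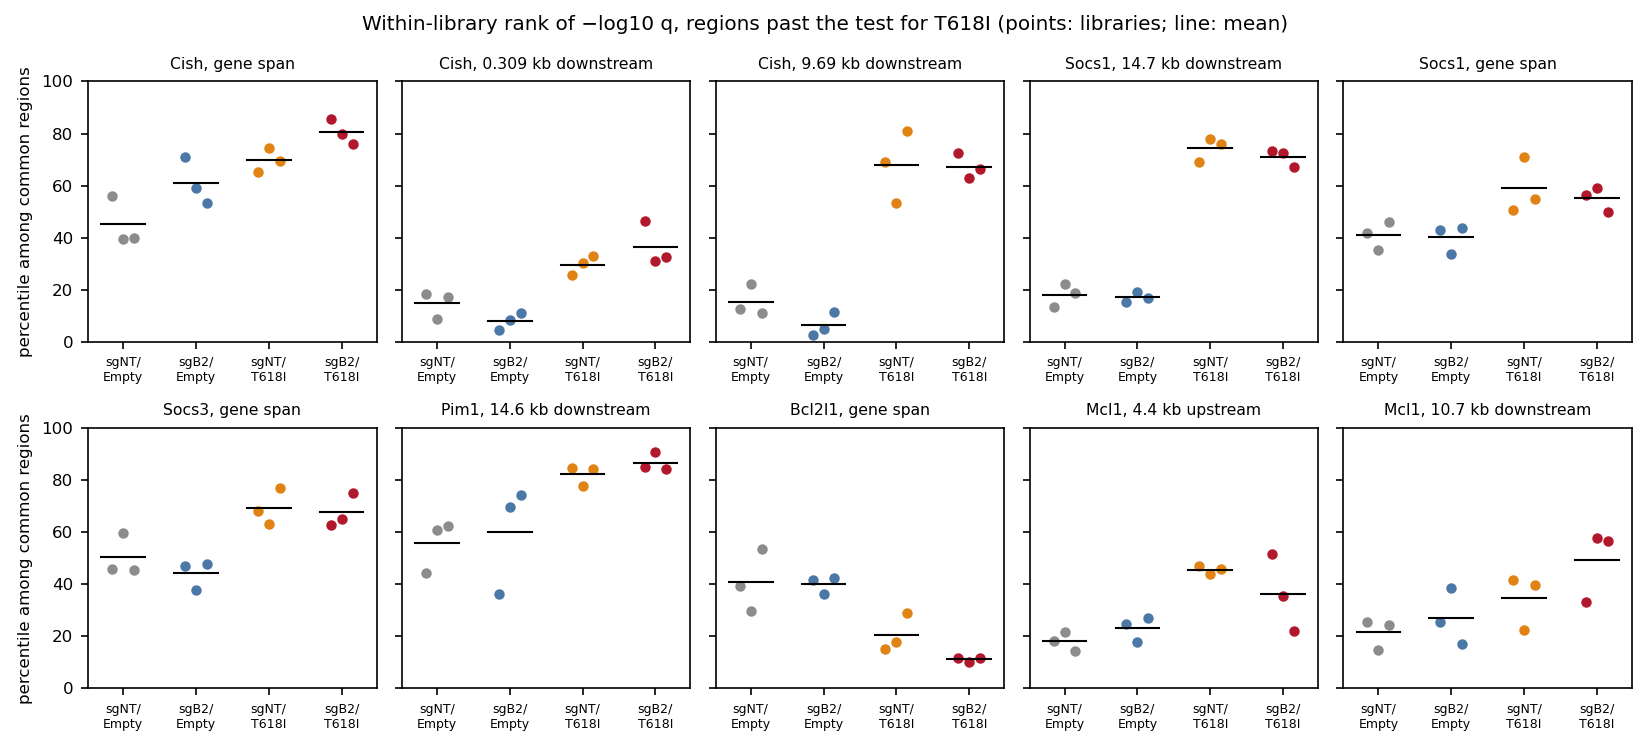
Percentile of the −log10 q of a region among the 13356 regions found in every library (y axis, 0 to 100) in the 4 groups (x axis), for the 10 member regions that passed the T618I test. Points are libraries and lines are group means. The Cish region 9.69 kb downstream and the Socs1 region 14.7 kb downstream stand at 22.3 or lower in every Empty library and at 53.4 or higher in every T618I library, and the Bcl2l1 region goes down.

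The largest change was at a region 9.69 kb downstream of Cish (chr9:107312472-107313430, 959 bp, outside any protein-coding gene span). With the empty vector its percentile was 12.6, 22.3 and 10.9 in sgNT cells and 2.73, 4.83 and 11.6 in sgB2 cells. With T618I it was 69.2, 53.4 and 80.8 in sgNT cells and 72.6, 63.1 and 66.2 in sgB2 cells. Every T618I library was above every Empty library, which held for 2.54% of the 13356 regions. The change in normal score was 1.79 ± 0.17 (limma adjusted p = 5.18e-06), the 5th largest rise of all 13356. The sgB2 change at the region was -0.29 (adjusted p = 0.304).

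A region 14.7 kb downstream of Socs1 (chr16:10768848-10769139, 292 bp, in no protein-coding gene span) showed a similar pattern. The sgNT libraries stood at 13.3, 22.3 and 18.9 without the receptor mutant and at 69.1, 77.9 and 76.1 with it. The sgB2 libraries stood at 15.5, 19.3 and 16.9 without it and at 73.5, 72.6 and 67.3 with it. The highest Empty library stood at 22.3 and the lowest T618I library at 67.3, and the guides overlapped within each vector. The change was 1.54 ± 0.13 (limma adjusted p = 1.99e-06), the 20th largest rise. Both this region and the one downstream of Cish passed in every alternative tried and without any single library.

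The promoter region of Cish, which holds the palindromes printed above (chr9:107295824-107297082), had group mean percentiles of 45.1 (sgNT) and 61.2 (sgB2) with the empty vector and of 69.8 and 80.4 with T618I. It rose by 0.61 ± 0.14 with T618I (limma adjusted p = 0.00703), although sgB2/Empty replicate 1 (71.2) reached into the range of the T618I libraries. A region 0.309 kb past the end of Cish rose from 14.9 and 8.0 to 29.6 in sgNT/T618I and 36.6 in sgB2/T618I, with no overlap of T618I and Empty libraries (0.80 ± 0.15, limma adjusted p = 0.00109), but with the fold ranked its change was 0.19 (adjusted p = 0.533). By −log10 q, 3 of the 7 regions of the Cish window found in every library rose, all 3 at or downstream of the gene; by fold, the region at 9.69 kb was the one that rose. The other 4 lay in the neighbouring genes Mapkapk3, Hemk1 and 6430571L13Rik, with changes between -0.43 and -0.02 that did not pass; by fold, the one 13.4 kb upstream of Cish, inside Mapkapk3, fell (-0.81, adjusted p = 0.0217).

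The promoter region of Socs3 (chr11:117968898-117970330) was at 45.8, 59.6 and 45.4 in the sgNT libraries with the empty vector and at 68.1, 63.0 and 76.9 in those with T618I. In sgB2 libraries it was at 46.9, 38.0 and 47.7 with the empty vector and at 62.9, 65.1 and 75.2 with T618I. All T618I libraries were above all Empty libraries (0.56 ± 0.14, limma adjusted p = 0.0104). The Socs1 promoter region (chr16:10784865-10786616) was also separated, with group means of 41.0 and 40.1 with the empty vector and 58.9 and 55.1 with T618I (0.42 ± 0.14, adjusted p = 0.043). That call was lost without any one of 9 of the 12 libraries (adjusted p up to 0.117). When the authors' fold over background was ranked instead of −log10 q, the promoter regions of Cish, Socs1 and Socs3 had changes of -0.26, -0.15 and -0.17, none past the threshold, so that their rise depended on which peak value was ranked.

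The region at the upper end of the Socs2 span (chr10:95416507-95418129), which also overlaps the promoter window of 5730420D15Rik, did not pass: its T618I change was -0.23 ± 0.20 (limma adjusted p = 0.464) and its sgB2 change -0.59 (adjusted p = 0.0837). In sgB2/T618I its percentiles were 4.25, 6.86 and 1.07, beside 32.0, 27.7 and 19.6 in sgNT/T618I. Promoter regions of Pim1, Pim2, Bcl2l1 and Mcl1 did not pass either, with changes from -0.18 to 0.24. Those of Pim1 and Bcl2l1 stood high in all groups, with mean percentiles of 75.8 to 85.3 and 78.5 to 86.6.

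A region 14.6 kb downstream of Pim1 (chr17:29510669-29511151), a gene for a serine/threonine kinase that promotes survival, rose from means of 55.9 and 60.1 with the empty vector to 82.2 and 86.7 with T618I. The T618I libraries lay between 77.6 and 90.7 and the Empty libraries between 36.3 and 74.3, without overlap (0.81 ± 0.17, limma adjusted p = 0.0037). Around Mcl1, a region 4.40 kb upstream rose from 18.1 and 23.0 to 45.5 and 36.3 (0.59 ± 0.15, adjusted p = 0.0112), with sgB2/T618I replicate 3 (22.1) within the range of the Empty libraries. A second, 10.7 kb downstream, rose from 21.5 and 27.1 to 34.5 and 49.2 (0.50 ± 0.17, adjusted p = 0.0468), but this was lost without any one of 9 libraries (adjusted p up to 0.115). With fold ranked, the Pim1 change was 0.37 (adjusted p = 0.294) and the Mcl1 changes were -0.10 and -0.17.

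The region that fell lies inside Bcl2l1 (chr2:152788649-152789981, 1333 bp), the gene of the BCL-XL survival protein, away from its 3 promoter windows. Its percentile in sgNT cells was 39.4, 29.7 and 53.4 with the empty vector and 15.1, 17.7 and 28.8 with T618I. The sgB2 cells gave 41.7, 36.3 and 42.5 with the empty vector and 11.5, 10.2 and 11.7 with T618I. All T618I libraries were below all Empty libraries, by a narrow margin between 28.8 and 29.7, which held for 2.52% of the 13356 regions. The change was -0.79 ± 0.14 (limma adjusted p = 0.00123), and it passed in every alternative. Its covered length was 813 to 1311 bp with the empty vector and 1042 to 1242 bp with T618I, and the 2 overlapped.

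With sgB2, 1 of the 34 member regions rose in rank and 1 fell (4.96% and 4.14% of all such regions). The first lay 8.78 kb upstream of Socs3, with means of 15.01 (sgNT) and 26.3 (sgB2) with the empty vector and 8.79 and 30.1 with T618I (change 0.64, limma adjusted p = 0.0369). The second lay 16.03 kb downstream of Bcl2l1, with 98.02, 91.03, 98.2 and 95.9 in the same order (change -0.52, adjusted p = 0.0401). Groups overlapped at both, and each call was lost without any one of 8 libraries (adjusted p up to 0.101 and 0.104). With the fold ranked neither passed, with changes of 0.71 (adjusted p = 0.137) and -0.05 (adjusted p = 0.928). The interaction passed at 0 of the 34 regions and at 0.0599% of all.

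The regions found in only some libraries leaned towards T618I and away from sgB2, as in the series at large. Of the 40 member regions with a peak in 2 to 11 libraries, 31 had a peak in more T618I than Empty libraries, 6 in fewer and 3 in equal numbers, while 55.6% of all such regions had more and 25.9% fewer. For sgB2, 6 had more, 28 fewer and 6 equal numbers, beside 29.8% and 47.3% of all. List length moved the same way: the mean number of peaks was 24921 (sgNT) and 23812 (sgB2) with the empty vector and 28113 and 27222 with T618I (SD 1812 to 5788, n = 3), and its part in these counts was not tested. In the exact permutation test of presence (400 arrangements, smallest two-sided p 0.005) none of 37113 regions passed after adjustment. At an unadjusted p below 0.05 stood 3 of 74 member regions for T618I, all with more T618I libraries, and 1 for sgB2, beside 2.62% and 0.957% of all regions.

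**Figure D4:**
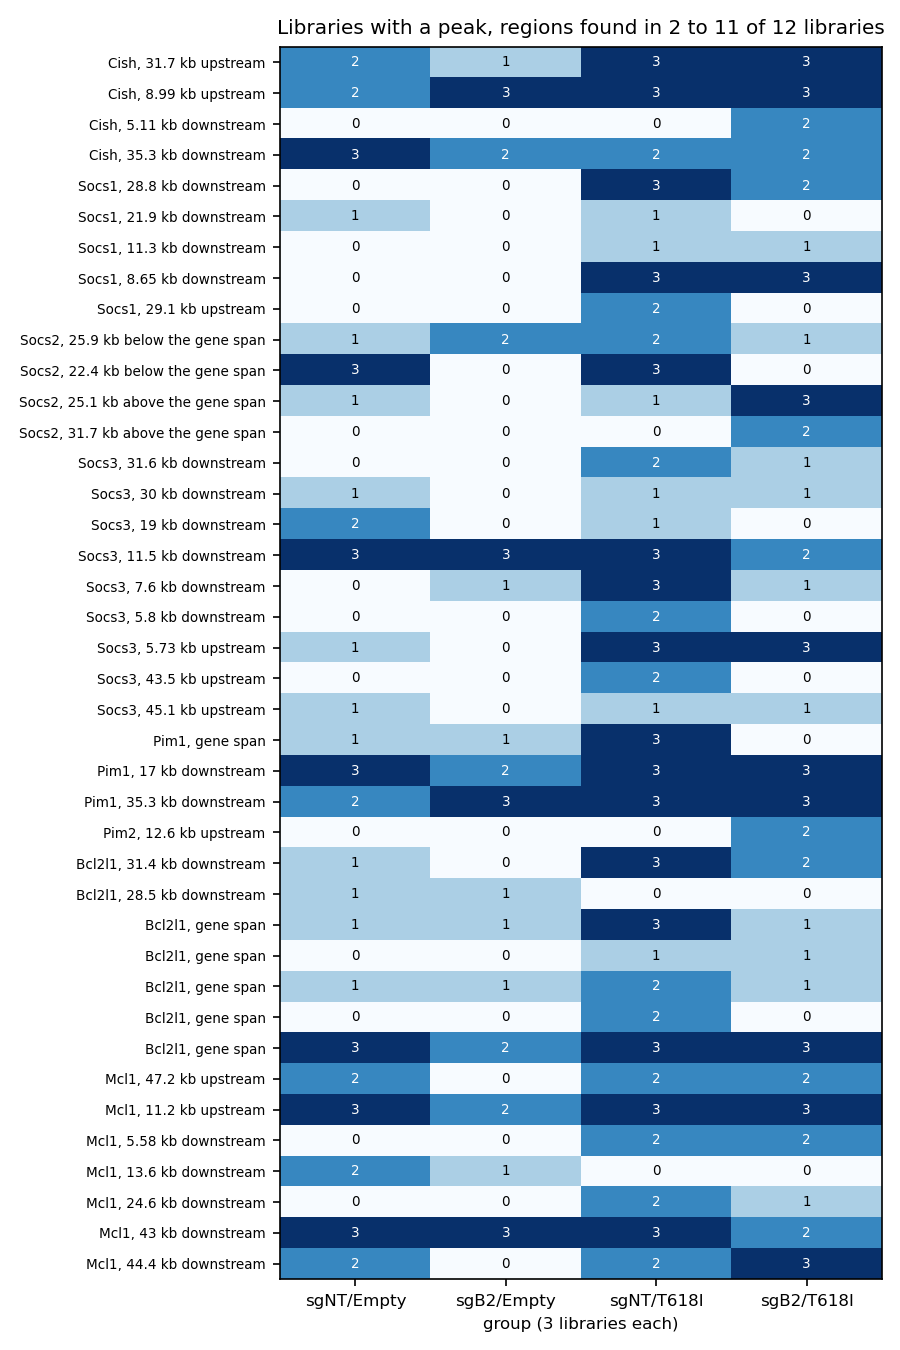
Number of libraries with a peak (0 to 3, shade and digit) in each group (x axis) for the 40 member regions found in 2 to 11 libraries (y axis, named by gene and distance from its span). Socs1 at 8.65 kb downstream has 3 and 3 libraries with T618I and 0 with the empty vector; Socs2 at 22.4 kb below the span has 3 and 3 with sgNT and 0 with sgB2.

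A region 8.65 kb downstream of Socs1 (chr16:10774746-10775157) had a peak in all 6 T618I libraries and in none of the 6 Empty libraries (exact permutation p = 0.005, adjusted p = 0.649). This pattern held at 0.684% of the tested regions. The peaks were 188 to 410 bp long and weak, between the 9.47 and 28.3 percentiles of their own lists. None of them reached a −log10 q of 4, and 1 was left when all lists were cut to equal length. A second Socs1 region, 28.8 kb downstream (chr16:10754548-10755046), had a peak in 3 of 3 sgNT/T618I, 2 of 3 sgB2/T618I and no Empty library (exact permutation p = 0.02), and 4 of these 5 peaks reached a −log10 q of 4. Together with the region 14.7 kb downstream that rose in rank, the stretch downstream of Socs1 held 3 regions that were higher or more frequent in T618I libraries by these tests, of which the rank test alone passed after adjustment. They were put together after their values were seen. Of the other regions there, some had peaks in T618I libraries only and some in 1 Empty library only. The one 21.9 kb downstream had a peak in 1 library of each vector. Of all regions found in 2 to 11 libraries, 55.6% had a peak in more T618I than Empty libraries.

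A region 5.73 kb upstream of Socs3 (chr11:117976069-117976586) had a peak in all 6 T618I libraries and in 1 of 6 Empty libraries, sgNT/Empty replicate 3 (exact permutation p = 0.02). At a −log10 q of at least 4 these numbers were 5 and 1. Of the other regions under the naming rule, one 31.4 kb downstream of Bcl2l1 had peaks in 5 T618I and 1 Empty library, one 5.58 kb downstream of Mcl1 in 4 and 0, one 7.60 kb downstream of Socs3 in 4 and 1, and one 25.1 kb above the Socs2 span in 4 and 1. None of these 4 had an unadjusted exact permutation p below 0.05. At a −log10 q of at least 4 the Bcl2l1 region had no peak left. The numbers were then 1 and 0 for the Mcl1 region, 3 and 0 for the Socs3 region and 2 and 0 for the Socs2 region.

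A region 22.4 kb below the Socs2 span (chr10:95360996-95361497) separated the guides instead. It had a peak in all 6 sgNT libraries and in none of the 6 sgB2 libraries (exact permutation p = 0.005, adjusted p = 1), a pattern seen at 0.181% of all tested regions. The peaks were 186 to 456 bp long and stood between the 10.3 and 52.3 percentiles of their own lists. At a −log10 q of at least 4 the numbers were 4 and 0, and with lists of equal length 3 and 0, the 3 being the sgNT/Empty libraries. A region 44.4 kb downstream of Mcl1 had a peak in 2 sgNT and 0 sgB2 libraries with the empty vector, and in 2 and 3 with T618I. One inside Pim1, at its other promoter window, had a peak in 1 library of each guide with the empty vector and in 3 sgNT and 0 sgB2 libraries with T618I; none of these 3 T618I peaks remained at a −log10 q of at least 4 or with lists of equal length.

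**Figure D5:**
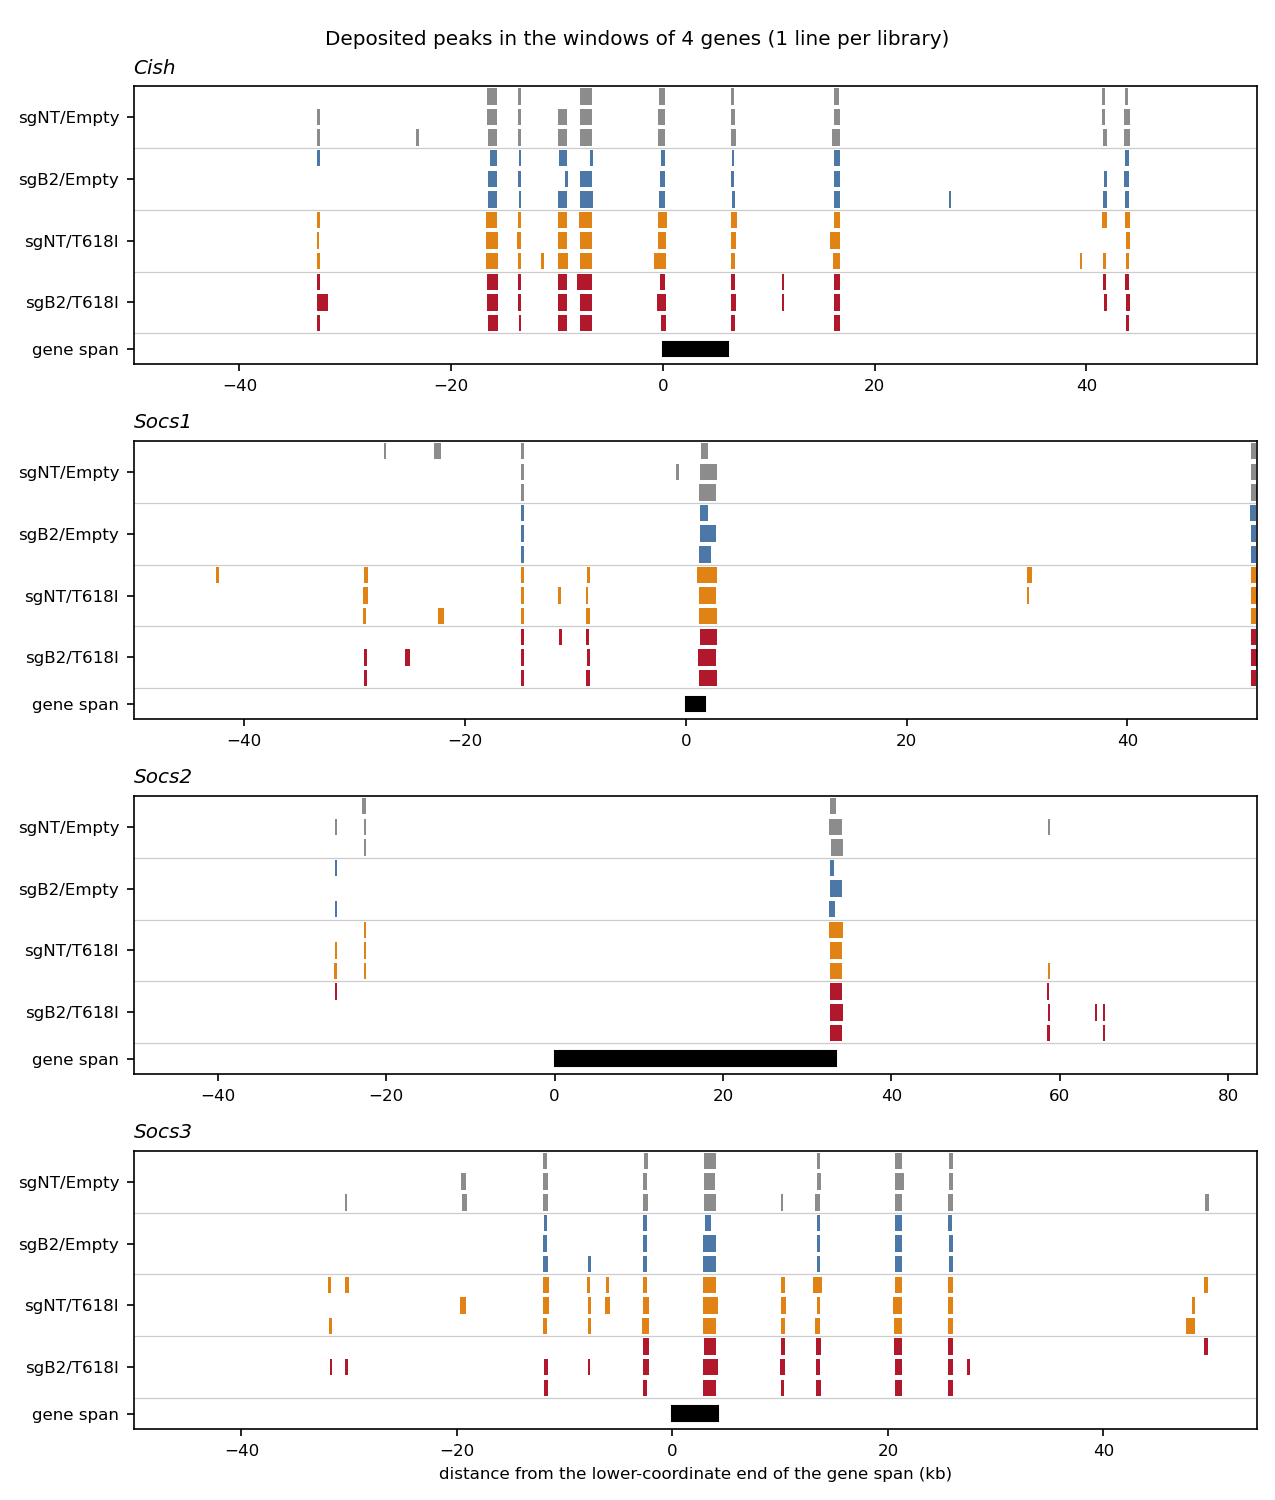
Deposited peaks (boxes; peaks under 0.25 kb are drawn at that width) in the windows of Cish, Socs1, Socs2 and Socs3, 1 line per library, coloured by group; the x axis is the distance in kb from the lower-coordinate end of the gene span, drawn in black. Socs1 shows the peaks of the 6 T618I libraries at 8.65 kb and Socs2 those of the 6 sgNT libraries at 22.4 kb, both to the left of the gene.

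Other genes of the pathway came from lists set with earlier results known. Of 5 other SOCS and PIM genes (Socs4 to Socs7 and Pim3) none passed for T618I or sgB2, with 1 at an unadjusted p below 0.05 for T618I and 0 for sgB2. Of 22 genes for JAKs, STATs and their restraint none passed for T618I (1 at an unadjusted p below 0.05), and for sgB2 Inpp5d, a lipid phosphatase gene, rose (0.37 ± 0.09, limma adjusted p = 0.0459) and Cbl, a ubiquitin ligase gene, fell (-0.51 ± 0.12, adjusted p = 0.0256), where 1.52% of all genes rose and 1.3% fell. At an unadjusted p below 0.05 stood 7 of the 22 for sgB2, beside 15.7% of all genes. Of 16 tested BCL2 family genes Bid, which promotes cell death, rose with T618I (0.40 ± 0.10, adjusted p = 0.0279), and Bcl2, which restrains it, rose with sgB2 (0.36 ± 0.08, adjusted p = 0.0256). Inpp5d and Bcl2 both lie on chromosome 1. When covered length was scaled by own chromosome, 72 genes rose with sgB2 instead of 233. These counts cover all chromosomes, and the covered share of chromosome 1 is not given here. The part of the scaling in the rises of Inpp5d and Bcl2 was not tested. The median T618I changes of these 3 lists, -0.02, -0.02 and 0.03, lay near that of all genes, -0.05.

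The list of 24 other STAT target genes was also set with earlier results of these data known, so its counts are descriptions only. Among the 24 genes 4 rose with T618I and none fell, where 4.06% of all genes rose and 2.43% fell. They were the receptor genes Il4ra (1.11 ± 0.17, limma adjusted p = 0.00126), Il1r2 (0.90 ± 0.14, adjusted p = 0.00142) and Tnfrsf13b (0.54 ± 0.12, adjusted p = 0.0161), and Gadd45g, a growth-arrest gene (0.56 ± 0.14, adjusted p = 0.0291). Il4ra had 2.95 ± 1.20 kb (sgNT) and 2.11 ± 0.72 kb (sgB2) with the empty vector and 5.85 ± 0.79 kb and 5.74 ± 1.01 kb with T618I (SD, n = 3). Ccnd2, a cyclin gene, fell with sgB2 (-0.71 ± 0.16, adjusted p = 0.0264). The median T618I change of the 24 genes was 0.10, beside 0.12 for the 8 members and -0.05 for all genes.

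Members did not vary as 1 block. Over the 12 libraries the 28 pairs of members had Pearson correlations of log2 scaled covered length from -0.20 to 0.77 with a median of 0.25, highest for Socs1 with Socs3 (0.77) and Socs3 with Mcl1 (0.76). The gene elsewhere whose covered length was most like each member's was Dnajc7 for Cish (0.88), Nynrin for Socs1 (0.90), Greb1l for Socs2 (0.88), Notch1 for Socs3 (0.92), Prokr1 for Pim1 (0.94), Ldb1 for Pim2 (0.98), Ift81 for Bcl2l1 (0.86) and Snx27 for Mcl1 (0.92). These are descriptions: the 12 libraries share groups and list lengths, and each name is the highest among the tested genes with no overlapping window.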

How the data were processed

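ATAC-seq peak lists of 12 libraries (4 groups of 3) were analysed. Per the submitters' processing notes, BWA 0.7.17, SAMtools 1.9, bedtools 2.30, deepTools 3.5 and MACS2 2.2.7.1 were used with mm10; settings are not given in the sources used here. The authors deposited 1 list of broad peaks per library, with a score, a fold over background (a ratio), −log10 p and −log10 q. The score and the −log10 p were not used; −log10 q and fold were only ranked or filtered within a library. Depth is unknown.

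Gene spans came from the GRCm38.p6 RefSeq table, which gives no exons. Merging joined peaks that shared 1 bp or more. Covered length in the span ± 50 kb, scaled to an equal total per library, was taken as log2(length + 500 bp) and modelled with limma 3.58.1 (trend; R 4.3.3; 8 residual degrees of freedom) for the 15286 genes whose mean reached 500 bp, all 8 members among them. Presence was tested by exact permutation within the other factor over the 37113 regions found in at least 2 libraries, and rank by limma over 13356 regions. Thresholds were an adjusted p of 0.05 (Benjamini-Hochberg). Tables and figures were made with python 3.11.15 (matplotlib 3.10.9, numpy 2.4.6, pandas 2.3.3), and the procedures were tested on simulated data.

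The members and lists were chosen with earlier results of these data known. Named were all members, at most 4 list genes that passed per comparison, regions at gene starts, and regions whose presence differed by at least 4 of 6 libraries or was 3 against 0 between groups that differ by 1 change; regions that passed the rank test were added after their values were seen. Alternatives changed the scaling, threshold, list length, window, pseudocount, filter, covariate, merging, overlap, ranked value, replicate block, groups fitted and each library. Over the 12 libraries the marker lists not given in full above ranged from 9.57 to 13.6 kb (progenitor) and 9.32 to 12.8 kb (monocyte and macrophage). The ranges were 11.3 to 13.7 kb for the erythroid and megakaryocyte list and 4.80 to 8.84 kb for the mast cell, basophil and eosinophil list.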

Additional observations from a re-analysis of the deposited data

How the results depend on the processing

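Peak lists without read counts limit every value here: a weak peak can be missing from a short list for want of depth. Of 1264 alternative values of the members' covered length, 8 passed the threshold where the main value did not and 88 changed sign without passing, and the others kept their side of it. For T618I those that passed were Cish with equal-length lists (adjusted p = 0.00916, and 0.0374 in sgB2 cells), Socs1 unscaled (0.0111), with the number of peaks as covariate (0.0267) and without sgNT/Empty replicate 1 (0.0204), and unscaled Socs3 (0.0479) and Mcl1 (0.0387). Socs2 in sgB2 cells passed without sgB2/Empty replicate 2 (0.0436). Without scaling the median of all genes was 0.20 for T618I and -0.14 for sgB2; of the genes called for T618I, 837 then rose and 16 fell (621 and 371 in the fit reported). Of 1530 alternative values of the members' region ranks 40 kept their sign but no longer passed, 9 newly passed and 95 changed sign. Of the regions that had passed, 5 changed sign and also no longer passed, all with the fold ranked. They were the promoter regions of Cish (-0.26), Socs1 (-0.15) and Socs3 (-0.17) and the Mcl1 regions 4.40 kb upstream (-0.10) and 10.7 kb downstream (-0.17). The cause was not tested.

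Counts of called genes or regions moved by over 1.5 times as follows; the cause was not tested. T618I (992 genes): 372 with windows of 10 kb, 643 with the covariate. T618I in sgNT cells (228): 59 unscaled, 513 with equal-length lists, 56 with 10 kb. T618I in sgB2 cells (245): 36 unscaled, 102 with 10 kb. For sgB2 (432), 22 unscaled, 178 scaled by own chromosome, 122 at a −log10 q of at least 4 and 122 with 10 kb. For sgB2 with Empty (54), in the same order 1, 28, 12 and 21, then 32 with a pseudocount of 100 bp and 24 with only the 2 groups fitted. For sgB2 with T618I (55), 5 unscaled, 31 by own chromosome, 210 with equal-length lists, 26 with 10 kb and 115 with only the 2 groups. For the interaction (1), 9 at a −log10 q of at least 4, 4 with equal-length lists, 2 with 100 bp and 0 with 1000 bp. With the fold ranked, 998 regions passed for T618I (2521 reported), 160 for sgB2 (1216) and 0 for the interaction (8). Region presence had 0 calls in every alternative.

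Leaving out each library in turn gave 582 to 1119 genes for T618I (lowest without sgNT/T618I replicate 1), 63 to 275 in sgNT cells (without sgNT/T618I replicate 2), 91 to 381 in sgB2 cells (without sgB2/Empty replicate 1), 225 to 585 for sgB2 (without sgNT/T618I replicate 1), 15 to 133 with Empty (without sgNT/Empty replicate 2), 15 to 106 with T618I (without sgNT/T618I replicate 1) and 0 to 3 for the interaction; for rank 1928 to 2597, 782 to 1391 and 0 to 11 regions.

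Replicate numbers did not pair the libraries: over 18 same-numbered pairs the correlation of deviations from the group means ran from -0.16 to 0.22, with 4 over 0.1. With the replicate block 1036 genes passed for T618I and 457 for sgB2, and 2375, 1091 and 3 regions for the rank tests of T618I, sgB2 and the interaction. Under the block the Socs1 promoter region (adjusted p = 0.0605) and the Mcl1 region 10.7 kb downstream (0.0654) no longer passed for T618I, and the region at the upper end of Socs2 passed for sgB2 (0.0466).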

Other observations

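With the authors' fold ranked in place of −log10 q, 3 member-window regions passed for T618I that had not passed before (limma). A region 13.4 kb upstream of Cish, inside Mapkapk3, fell by 0.81 (adjusted p = 0.0217), one 1.80 kb downstream of Pim1 fell by 0.79 (adjusted p = 0.0123), and the one at the Ensa promoter, 31.5 kb upstream of Mcl1, rose by 0.68 (adjusted p = 0.0362). They were singled out after their values were seen.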
